A study of Homo sapiens with 12 samples.

Results

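A set of 10 genes of TGF-beta, activin and BMP signalling was followed in the immortalized human lens epithelial line HLE-B3. These were taken by name from the 58735 genes of the deposited tables: the ligand genes TGFB1, TGFB2, TGFB3, INHBA, BMP2 and BMP4, the receptor gene TGFBR2, the secreted antagonist FST, the inhibitory SMAD gene SMAD7 and the TGF-beta-induced matrix gene TGFBI. All 10 members were found, each as 1 gene. They were chosen with earlier results of these data known, so counts of members that passed are only a description. RNA-seq was performed on 4 groups of 3 biological replicates: wild-type (WT) cells and ATG7 knockout cells (ATG7 KO, genotype label Atg7KO), either untreated and collected at 0 h or exposed to 200 μM H2O2 for 12 h. ATG7 is an enzyme needed to attach LC3 to membranes, so that cells without it cannot form autophagosomes normally, and H2O2 was used as the oxidative stress. The knockout was made by CRISPR/Cas9 from picked clones, and which clone or clones were sequenced was not given in the sources used here, so the knockout and a clone's own history cannot be told apart. Because untreated cells were collected at 0 h, the H2O2 exposure and 12 h of further culture cannot be told apart either.

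TGF-betas, activins and BMPs are secreted dimers of a single superfamily that bind pairs of receptor kinases on the cell surface. The TGF-beta and activin receptors phosphorylate SMAD2 and SMAD3, the BMP receptors phosphorylate SMAD1, SMAD5 and SMAD9, and both kinds of SMAD enter the nucleus with SMAD4. In the lens, TGF-beta is known for turning epithelial cells into fibroblast-like cells that lay down matrix, as in fibrotic cataract, and BMPs are known for their part in lens formation and fibre differentiation.

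The promoters of INHBA, FST, SMAD7 and TGFB2 are shown. The first 3 of these genes rose with H2O2 in both cell lines and TGFB2 fell in both. TGFBI also fell in both, but its promoter, which held none of the motifs marked below, is not shown. Each sequence holds 300 bases, 250 before and 50 from the transcription start listed first for the gene by RefSeq on GRCh38.p14, in the direction of transcription. They lie at chr7:41703041-41703340 (minus strand), chr5:53480379-53480678 (plus strand), chr18:48950916-48951215 (minus strand) and chr1:218345086-218345385 (plus strand). These listed starts differ from the ends of the gene spans given below. Those of INHBA, FST and SMAD7 lie inside the span, and that of TGFB2 lies before it. Capitals mark matches on either strand to TGANTCA (a loose AP-1 motif, with N for any base), CAGAC (a SMAD-binding element) and TATAAA (the letters of a TATA box). No marked matches overlap. The usual AP-1 motif has C or G at N.

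INHBA: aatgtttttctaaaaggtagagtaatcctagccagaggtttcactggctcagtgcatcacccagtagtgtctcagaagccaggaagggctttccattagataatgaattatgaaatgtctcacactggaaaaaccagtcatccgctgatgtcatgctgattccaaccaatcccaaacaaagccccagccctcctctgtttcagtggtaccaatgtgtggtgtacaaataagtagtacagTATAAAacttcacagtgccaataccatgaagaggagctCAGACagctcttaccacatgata

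FST: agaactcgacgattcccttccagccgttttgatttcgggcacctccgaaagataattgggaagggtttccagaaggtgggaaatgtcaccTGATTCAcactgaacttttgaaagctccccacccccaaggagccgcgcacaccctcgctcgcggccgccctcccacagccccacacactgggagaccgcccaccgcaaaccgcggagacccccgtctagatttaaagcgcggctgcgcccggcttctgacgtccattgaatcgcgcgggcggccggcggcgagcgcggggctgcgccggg

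SMAD7: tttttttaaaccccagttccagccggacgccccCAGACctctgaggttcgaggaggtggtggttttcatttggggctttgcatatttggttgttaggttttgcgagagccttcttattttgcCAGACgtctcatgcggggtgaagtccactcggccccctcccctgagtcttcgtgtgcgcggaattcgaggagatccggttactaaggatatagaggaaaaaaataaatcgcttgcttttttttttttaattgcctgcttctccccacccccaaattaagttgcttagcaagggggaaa

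TGFB2: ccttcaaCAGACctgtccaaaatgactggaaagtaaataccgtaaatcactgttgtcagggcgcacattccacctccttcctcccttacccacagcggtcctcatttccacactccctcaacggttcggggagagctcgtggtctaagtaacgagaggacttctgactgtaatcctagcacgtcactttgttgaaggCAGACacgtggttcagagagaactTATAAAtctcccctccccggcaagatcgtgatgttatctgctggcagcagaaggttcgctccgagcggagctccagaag

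INHBA had a TATAAA match that begins 11 bases before its start and a CAGAC match that begins at base 28 of the transcript. FST had a TGANTCA match, TGATTCA, that begins 160 bases before its start, with T rather than C or G in the centre. SMAD7 had 2 CAGAC matches, 217 and 128 bases before its start, and TGFB2 had 2 CAGAC matches, 243 and 53 bases before, and a TATAAA match 29 bases before. Among the first listed starts of the 9 members in the table, 1 promoter held TGANTCA, 5 held CAGAC and 2 held TATAAA, and over all 15 starts listed for them 2 members had TGANTCA, 5 CAGAC and 4 TATAAA. Of all 35116 promoters of the same length, 7.71% held TGANTCA, 45.3% held CAGAC and 11.5% held TATAAA, so a CAGAC match is common. A match of letters describes the sequence and does not show a bound factor.

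Library totals on genes ran from 15602183 to 17659496 reads. Replicate 1 of untreated ATG7 KO cells stood apart: it correlated with its replicates at a mean r of 0.974 and the other 2 of that group at 0.983, whereas the libraries of the other 3 groups correlated at 0.991 or more. Over all genes, the biological coefficient of variation reached 0.162 for untreated ATG7 KO against WT and 0.161 for the ATG7 KO response to H2O2, against 0.0416 and 0.047 for the comparisons without that group. Without H2O2, ATG7 mRNA had a mean of 2.55 ± 0.313 FPKM in WT (SD, n = 3) and 3.55 ± 0.205 in ATG7 KO, and with H2O2 1.96 ± 0.0411 and 2.19 ± 0.137, so the mRNA level gave no check of the knockout. Of 12 lens epithelium markers, 3 to 4 had a mean above 1 FPKM in each group, CDH2 being the highest, while CRYAA and CRYBB2, 2 crystallin genes, were at 0 in every untreated library and FOXE3, a lens epithelial transcription factor, at 0 in every ATG7 KO library. All 5 fibroblast or mesenchymal markers were above 1 FPKM in each group, with summed levels of 974–987 FPKM in untreated WT, 586–610 in treated WT, 744–752 in untreated ATG7 KO and 449–459 in treated ATG7 KO cells. COL1A1 and VIM made up most of each sum, with means of 625.5 and 321.9 FPKM in untreated WT cells. ACTA2 rose with H2O2 instead, from 1.56 to 3.55 FPKM in WT and from 1.06 to 2.48 in ATG7 KO cells. PDGFRB had a higher mean in untreated ATG7 KO than in untreated WT cells (6.34 against 4.42 FPKM). The part of the shift of the sums in the results on members was not tested. None of the 4 corneal epithelial markers was above 1 FPKM in any group, and of the 6 retinal pigment epithelial and 3 leukocyte markers at most 1 each was.

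In untreated WT cells the levels per gene length, in FPKM, were highest for TGFBI and lowest for BMP2. TGFBI had 330.0 ± 3.04 (SD, n = 3), TGFB1 78.0 ± 1.1, TGFBR2 22.0 ± 0.83, SMAD7 10.2 ± 0.296, TGFB2 9.74 ± 0.399, FST 2.74 ± 0.248, INHBA 1.96 ± 0.139, TGFB3 1.32 ± 0.138, BMP4 1.31 ± 0.359 and BMP2 0.00531 FPKM. The libraries of SMAD7 and TGFB2 overlapped, as did those of TGFB3 and BMP4, and the other neighbours in this order did not. In treated ATG7 KO cells INHBA stood at 90.2 ± 1.78 FPKM, below TGFBI (196.7 ± 1.92) and TGFB1 (125.2 ± 3.29) and above TGFBR2 (54.6 ± 1.95).

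**Figure D1:**
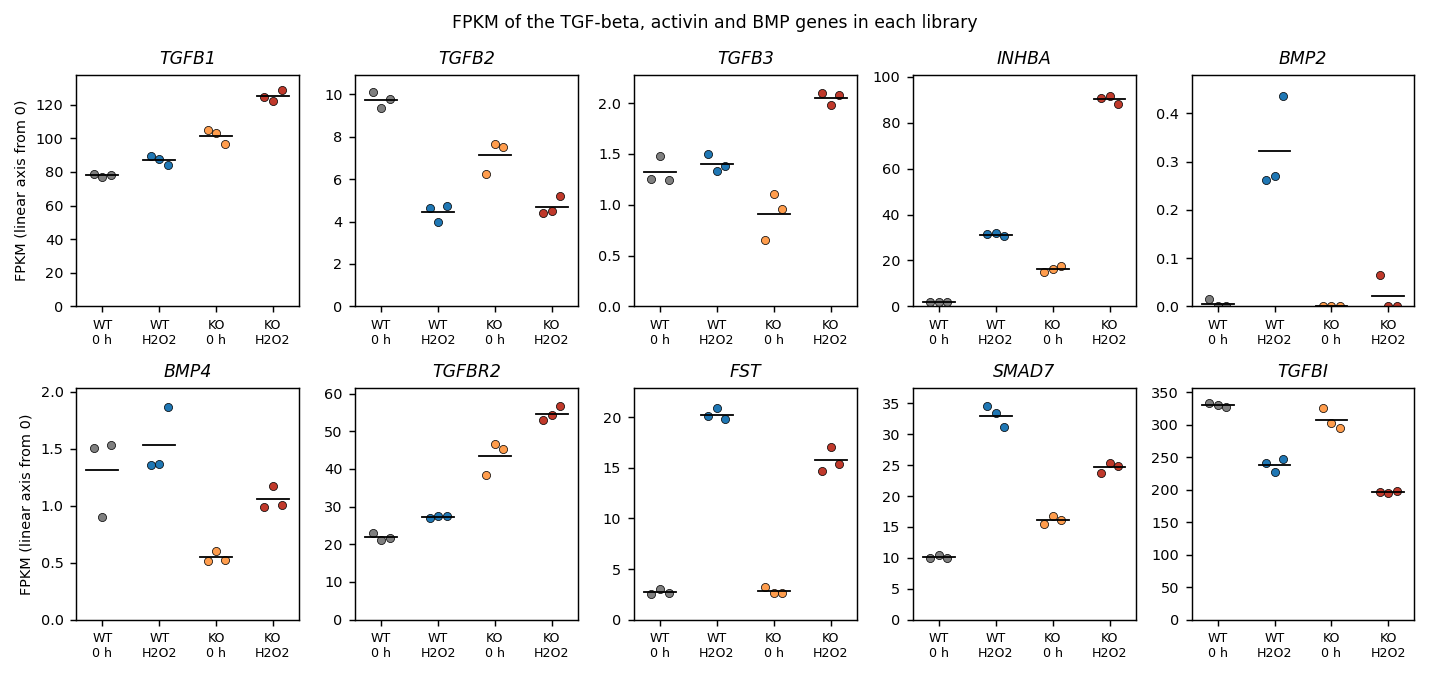
FPKM (linear axes from 0) of each of the 10 genes in the 12 libraries, with 1 point per library and a line at the mean of each group of 3 (KO: ATG7 KO). INHBA is highest in treated ATG7 KO cells (88.2 to 91.7 FPKM) and lowest in untreated WT cells (1.85 to 2.12), and FST and SMAD7 are highest in treated WT cells.

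The 4 comparisons and the difference of the H2O2 responses were tested with edgeR's quasi-likelihood test, and a gene passed at a Benjamini-Hochberg adjusted p under 0.01 over all genes tested. In untreated cells, 3 of 9 tested members passed, all higher in ATG7 KO cells (INHBA, TGFBR2 and SMAD7), where 7.7% of all 15357 tested genes passed, 4.42% higher and 3.28% lower. With H2O2, 8 of 10 members passed in the same comparison, 4 higher (TGFB1, TGFB3, INHBA and TGFBR2) and 4 lower (BMP2, FST, SMAD7 and TGFBI), against 55.6% of all genes, 27.7% higher and 27.9% lower. H2O2 changed 8 of 10 members in WT cells, of which 6 rose (TGFB1, INHBA, BMP2, TGFBR2, FST and SMAD7) and 2 fell (TGFB2 and TGFBI), against 61% of all genes (30.9% rose and 30.1% fell). In ATG7 KO cells 7 of 9 changed, of which 5 rose (TGFB3, INHBA, BMP4, FST and SMAD7) and the same 2 fell, against 26% of all genes (13.6% rose and 12.4% fell). The H2O2 response differed between the lines for 3 of 10 members (TGFB3, INHBA and SMAD7), against 14% of all genes, of which 7.02% had the higher response in ATG7 KO cells and 7.01% the lower. Most genes passed in treated ATG7 KO against treated WT and in the WT response, so the counts of members there are read against a high background. In RNA from bulk cultures, fewer cells that express a gene and less RNA per cell cannot be told apart.

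The study's own definition of a differentially expressed gene also asks for a log2 fold change beyond 1 and an FPKM above 1, taken here as the mean of at least 1 of the groups compared. By it, INHBA was the 1 member called in untreated ATG7 KO against WT cells (3.5% of all genes) and the 1 called with H2O2 (7.46%). It called 4 members in the WT response (12.5% of all genes), INHBA, FST and SMAD7 rising and TGFB2 falling, and 3 in the ATG7 KO response (11.2%), INHBA, FST and TGFB3 rising.

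**Figure D2:**
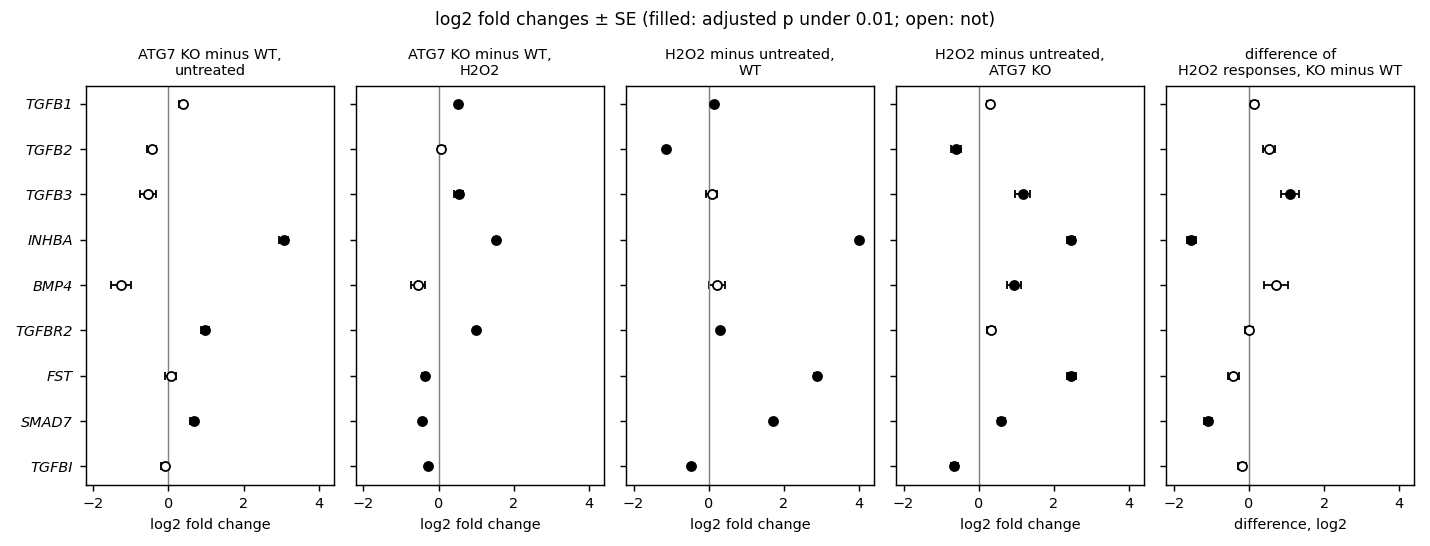
Log2 fold change with its standard error (x axis) of 9 members (y axis) in the 4 comparisons, and the difference of the H2O2 responses in the last panel, with filled points for an adjusted p under 0.01. BMP2 is left out because its reads were too few for a stable fold. INHBA lies to the right of 0 in the first 4 panels and at -1.53 in the last.

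INHBA showed the widest range of the members above 1 FPKM. It encodes the βA subunit that pairs with itself to form activin A and with the α subunit to form inhibin A. The gene (ENSG00000122641) lies on chromosome 7 at 41667168–41705834 on the minus strand of GRCh38. INHBA had 1.85, 2.12 and 1.92 FPKM in untreated WT cells and 31.4, 31.9 and 30.5 FPKM after H2O2. It had 14.8, 16.5 and 17.8 FPKM in untreated ATG7 KO cells and 90.7, 91.7 and 88.2 FPKM after H2O2. The 4 groups did not overlap, and untreated ATG7 KO cells lay between untreated and treated WT cells. The log2 fold change of ATG7 KO against WT was 3.06 (SE 0.12, adjusted p = 6.71e-05) without H2O2, an 8.33-fold difference, and 1.52 (SE 0.03, adjusted p = 1.69e-26) with H2O2, a 2.87-fold difference. With H2O2, INHBA rose 15.9-fold in WT (log2 3.99, SE 0.06, adjusted p = 5.6e-44) and 5.5-fold in ATG7 KO cells (log2 2.46, SE 0.11, adjusted p = 2.14e-05). The response was smaller in ATG7 KO cells by 1.53 on the log2 scale, with an interaction of -1.53 (SE 0.12, adjusted p = 1.04e-05). By log2 fold change INHBA ranked 118 of 15357 genes from the top in untreated ATG7 KO against WT cells and 235 of 15913 in the WT response. INHBA-AS1, which overlaps INHBA on the opposite strand, had 1 to 175 reads per library against 267 to 12890 for INHBA, and the strand setting of the counting was not given in the sources used here.

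FST encodes follistatin, a secreted protein that binds activins and keeps them from their receptors. The gene (ENSG00000134363) lies on chromosome 5 at 53480409–53487134 on the plus strand. FST had 2.57, 3.02 and 2.62 FPKM in untreated WT cells and 20.1, 20.9 and 19.8 FPKM after H2O2. ATG7 KO cells had 3.27, 2.63 and 2.67 FPKM untreated and 14.7, 17.1 and 15.4 FPKM treated. The untreated libraries of both lines overlapped, and each treated library of ATG7 KO cells lay below each treated library of WT cells. H2O2 raised FST by 2.88 on the log2 scale in the WT line (SE 0.08, adjusted p = 2.41e-32) and by 2.46 in the knockout line (SE 0.12, adjusted p = 2.87e-05). Treated ATG7 KO cells were lower than treated WT cells by a log2 fold change of -0.37 (SE 0.06, adjusted p = 1.65e-06), whereas the untreated difference of 0.06 (SE 0.15) had an adjusted p of 0.812. The difference between the responses was -0.42 (SE 0.15) and did not pass (adjusted p = 0.0444).

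The ratio of INHBA to FST within a library does not depend on how libraries are scaled to each other. It was 0.717 ± 0.0167 (SD, n = 3) in untreated WT cells and 1.54 ± 0.0201 in treated WT cells, in FPKM of INHBA per FPKM of FST. In ATG7 KO cells it was 5.82 ± 1.13 untreated, with libraries at 4.52, 6.29 and 6.64, and 5.76 ± 0.407 treated, with libraries at 6.18, 5.37 and 5.72. The ATG7 KO libraries of the untreated and treated groups overlapped, and every one of them lay above every WT library.

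**Figure D3:**
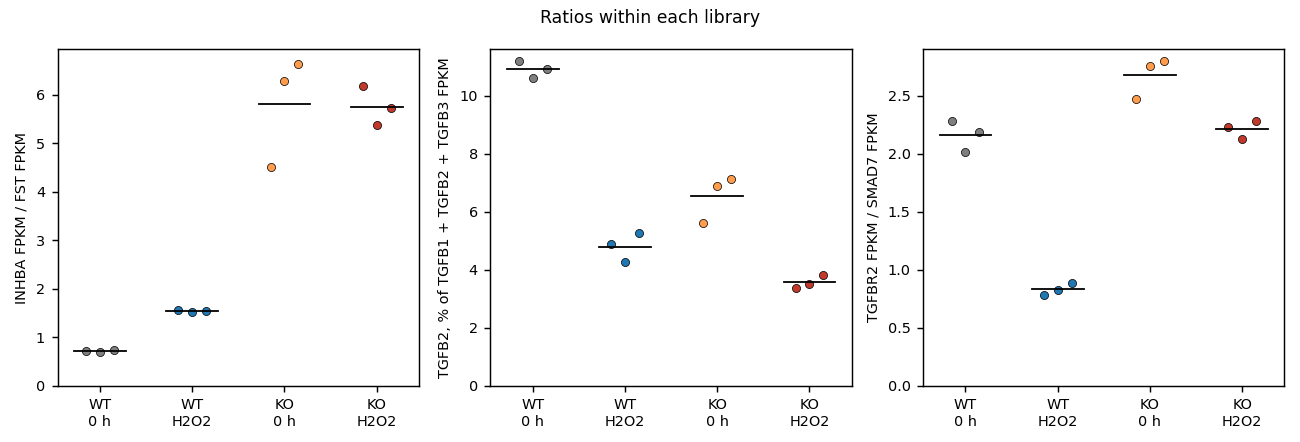
Ratios within each library (y axes, linear from 0) by group, with 1 point per library and a line at the mean of 3: INHBA per FST, the share of TGFB2 in the summed FPKM of TGFB1, TGFB2 and TGFB3, and TGFBR2 per SMAD7. INHBA per FST is 4.52 to 6.64 in the 6 ATG7 KO libraries and 0.7 to 1.56 in the 6 WT libraries, and TGFBR2 per SMAD7 is lowest in treated WT cells (0.784 to 0.882).

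TGFB1 was the main TGF-beta ligand transcript. It encodes the isoform best known from fibrosis and immune control, and lies on chromosome 19 at 41301587–41353911 on the minus strand (ENSG00000105329). TGFB1 had 79.0, 76.9 and 78.3 FPKM in untreated WT cells and 89.3, 87.9 and 84.4 FPKM in treated WT cells. It had 104.8, 102.9 and 96.9 FPKM in untreated ATG7 KO cells and 124.4, 122.3 and 128.8 FPKM in treated ATG7 KO cells. The 4 groups followed each other without overlap. TGFB1 was higher in ATG7 KO than in WT cells with H2O2, by 0.51 on the log2 scale (SE 0.04, adjusted p = 6.12e-14), while the untreated difference of 0.38 (SE 0.09) had an adjusted p of 0.0262. It rose by 0.15 with H2O2 in WT cells (SE 0.04, adjusted p = 0.00136), a call lost without replicate 2 or 3 of untreated WT, without replicate 1 of treated WT, with all 12 libraries in 1 fit, with no filter on low counts and with a gene length correction. The log2 fold change of 0.30 in ATG7 KO cells (SE 0.09) had an adjusted p of 0.0306. HNRNPUL1, with 10757 to 18976 reads per library, and CCDC97, with 892 to 1622, overlap TGFB1 on the opposite strand.

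TGFB2 went the other way with H2O2. It encodes the isoform most often linked to the eye, where it is abundant in the aqueous humor, and lies on chromosome 1 at 218346235–218444619 on the plus strand (ENSG00000092969). TGFB2 had 10.1, 9.33 and 9.77 FPKM in untreated WT cells and 4.65, 3.97 and 4.75 FPKM after H2O2. ATG7 KO cells had 6.25, 7.67 and 7.5 FPKM untreated and 4.4, 4.5 and 5.21 FPKM treated. The treated libraries of both lines overlapped, and the untreated ATG7 KO libraries lay below the untreated WT libraries. With H2O2, TGFB2 had log2 fold changes of -1.13 in WT (SE 0.07, adjusted p = 1.14e-18) and -0.61 in ATG7 KO cells (SE 0.13, adjusted p = 0.00766). The ATG7 KO call was lost when any 1 library other than replicate 1 of untreated ATG7 KO was left out and with the replicate number as a block. The difference between lines was -0.45 untreated (SE 0.11, adjusted p = 0.0322) and 0.07 with H2O2 (SE 0.09, adjusted p = 0.508), and the difference of responses was 0.53 (SE 0.15, adjusted p = 0.0201), none of which passed.

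TGFB3, the third isoform, was the least abundant of them. It lies on chromosome 14 at 75958099–75982991 on the minus strand (ENSG00000119699). TGFB3 had 1.25, 1.48 and 1.24 FPKM in untreated and 1.5, 1.33 and 1.38 FPKM in treated WT cells. It had 0.654, 1.11 and 0.956 FPKM in untreated and 2.1, 1.98 and 2.08 FPKM in treated ATG7 KO cells. The treated ATG7 KO libraries were above those of the other 3 groups, which rested on 53 to 134 reads per library against 160 to 177. TGFB3 rose with H2O2 in ATG7 KO cells by 1.17 on the log2 scale (SE 0.20, adjusted p = 0.00363), against 0.08 in WT cells (SE 0.15, adjusted p = 0.628). The responses differed by 1.09 (SE 0.23, adjusted p = 0.00503), but this call was lost when any 1 of the 9 libraries outside the untreated ATG7 KO group was left out, with the adjusted p between 0.0105 and 0.0156. With H2O2, TGFB3 was higher in ATG7 KO than WT cells by 0.54 (SE 0.12, adjusted p = 0.000367), a call lost with all 12 libraries in 1 fit. The call in the ATG7 KO response was lost without replicate 3 of untreated ATG7 KO and without any 1 treated ATG7 KO library. IFT43, with 132 to 286 reads per library, overlaps TGFB3 on the opposite strand.

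As shares of the summed FPKM of the 3 TGF-beta isoforms, TGFB1 made up 87.6% ± 0.143 (SD, n = 3) for untreated WT, 93.7% ± 0.557 for treated WT, 92.6% ± 1.02 for untreated ATG7 KO and 94.9% ± 0.209 for treated ATG7 KO. The share of TGFB2 was 10.9%, 4.79%, 6.53% and 3.56% in the same order. The sum itself was 89.1 ± 1.38, 93.1 ± 2.49, 109.6 ± 3.61 and 131.9 ± 3.73 FPKM, nearly all of it TGFB1. Every ATG7 KO library had a higher sum than every WT library. The sum was not tested, and in untreated cells the TGFB1 difference between the lines did not pass.

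BMP4 and BMP2 encode ligands of the BMP branch, and both were low. BMP4 (ENSG00000125378, chromosome 14 at 53949736–53958761, minus strand) had 1.51, 0.9 and 1.53 FPKM in untreated and 1.36, 1.37 and 1.87 FPKM in treated WT cells. In ATG7 KO cells it had 0.511, 0.601 and 0.526 FPKM untreated and 0.985, 1.17 and 1.01 FPKM treated, from 26 to 59 reads per library. The ATG7 KO libraries lay below the WT libraries of the same treatment. The log2 fold change of ATG7 KO against WT was -1.26 untreated (SE 0.26, adjusted p = 0.0164) and -0.55 with H2O2 (SE 0.19, adjusted p = 0.0117), and neither passed. Among 16 alternative settings, the untreated difference newly passed in 5 and the one with H2O2 in 3. BMP4 rose with H2O2 in ATG7 KO cells by 0.94 (SE 0.19, adjusted p = 0.0068), a call lost when any 1 library but replicate 1 of the untreated group was left out, with no filter on low counts and with the replicate block. The WT change was 0.22 (SE 0.20, adjusted p = 0.313) and the difference of responses was 0.72 (SE 0.32, adjusted p = 0.105). Of 75 tested genes that start within 5 Mb of BMP4, 17 were higher and 0 lower in untreated ATG7 KO cells (median log2 fold change 0.34), and with H2O2 43 of 74 were higher and 9 lower (median 0.5).

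BMP2 (ENSG00000125845, chromosome 20 at 6767664–6780280, plus strand) was close to the limit of detection. It had 1, 0 and 0 reads in untreated WT cells, 16, 15 and 27 reads in treated WT cells, 0 reads in each library of untreated ATG7 KO cells, and 4, 0 and 0 reads in treated ATG7 KO cells. Reads appeared in every treated WT library. The summed reads of treated WT cells, relative to library totals, were 60.1 times those of untreated WT cells, with a 95% exact interval of 10.4 to 2415.2, and those of treated ATG7 KO cells were 0.0667 times those of treated WT cells, with an interval of 0.0176 to 0.18. These intervals cover counting error and not the spread between replicates. Both differences passed edgeR's test (adjusted p = 2e-08 and 6.25e-06), and BMP2 was too low to be tested in untreated cells and in the ATG7 KO response.

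TGFBR2 encodes the type II receptor that binds TGF-beta directly. The gene (ENSG00000163513) lies on chromosome 3 at 30606502–30694142 on the plus strand. TGFBR2 had 22.9, 21.2 and 21.8 FPKM in untreated and 27.0, 27.6 and 27.5 FPKM in treated WT cells. The ATG7 KO libraries had 38.3, 46.5 and 45.4 FPKM untreated and 52.9, 54.2 and 56.8 FPKM treated. Every ATG7 KO library lay above every WT library, and replicate 1 was the lowest of the untreated ATG7 KO libraries. The log2 fold change of ATG7 KO against WT was 0.98 untreated (SE 0.11, adjusted p = 0.00142) and 0.99 with H2O2 (SE 0.04, adjusted p = 6.39e-20), a 1.98-fold difference in both. The untreated call was lost when any 1 untreated WT library was left out, although the log2 fold change stayed between 0.93 and 1.07 in every setting tried. H2O2 raised TGFBR2 by 0.31 in WT cells (SE 0.05, adjusted p = 1.84e-07), and the change of 0.33 in ATG7 KO cells (SE 0.11) had an adjusted p of 0.0461. The difference of the responses was 0.01 (SE 0.11, adjusted p = 0.947). Of the 27 tested genes that start within 5 Mb of TGFBR2, 0 were higher and 2 lower in untreated ATG7 KO cells (median log2 fold change -0.03), and with H2O2 9 were higher and 6 lower (median 0.18).

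SMAD7 encodes the inhibitory SMAD that blocks the TGF-beta receptor and is itself switched on by TGF-beta signalling. It lies on chromosome 18 at 48919853–48952052 on the minus strand (ENSG00000101665). SMAD7 had 10.0, 10.5 and 9.96 FPKM in untreated and 34.5, 33.4 and 31.2 FPKM in treated WT cells. It had 15.5, 16.8 and 16.2 FPKM in untreated and 23.7, 25.4 and 24.9 FPKM in treated ATG7 KO cells. Both ATG7 KO groups lay between the WT groups without overlap. SMAD7 was thus higher in ATG7 KO cells without H2O2, by 0.67 on the log2 scale (SE 0.09, adjusted p = 0.00316), and lower with H2O2, by a log2 fold change of -0.43 (SE 0.04, adjusted p = 3.56e-10). With H2O2 it rose by 1.70 in WT (SE 0.05, adjusted p = 7.58e-31) and by 0.60 in ATG7 KO cells (SE 0.09, adjusted p = 0.00149). The untreated call was lost when any 1 library other than replicate 1 of untreated ATG7 KO was left out and with the replicate number as a block (adjusted p = 0.0166), and the ATG7 KO response was lost without any 1 treated ATG7 KO library. The responses differed by -1.09 (SE 0.10, adjusted p = 2.29e-05). TGFBR2 per SMAD7, in FPKM, was 2.16 ± 0.132 (SD, n = 3) in untreated WT, 0.831 ± 0.0493 in treated WT, 2.68 ± 0.182 in untreated ATG7 KO and 2.21 ± 0.0765 in treated ATG7 KO cells.

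TGFBI encodes a secreted matrix protein named for its induction by TGF-beta. The gene (ENSG00000120708) lies on chromosome 5 at 136028895–136063818 on the plus strand. TGFBI had 333.0, 330.1 and 326.9 FPKM in untreated and 241.1, 227.5 and 247.1 FPKM in treated WT cells. ATG7 KO libraries had 325.5, 302.3 and 294.5 FPKM untreated and 196.8, 194.7 and 198.6 FPKM treated. Treated libraries of both lines lay below every untreated library. The fall of TGFBI with H2O2 was -0.47 on the log2 scale for WT (SE 0.04, adjusted p = 4.08e-15) and -0.65 for ATG7 KO cells (SE 0.10, adjusted p = 0.00201). The ATG7 KO call was lost when any 1 treated ATG7 KO library was left out. TGFBI was lower in treated ATG7 KO than in treated WT cells (log2 fold change -0.29, SE 0.03, adjusted p = 2.96e-09), and the untreated difference of -0.10 (SE 0.10) had an adjusted p of 0.497.

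Replicate 1 of untreated ATG7 KO cells, the library that stood apart, entered the untreated comparison, the ATG7 KO response and the difference of responses. Without it, 7 members passed in untreated ATG7 KO against WT cells, 4 higher (TGFB1 at 0.36, INHBA at 3.13, SMAD7 at 0.71 and TGFBR2 at 1.07 on the log2 scale) and 3 lower (TGFB2 at -0.35, BMP4 at -1.21 and TGFBI at -0.14), where 36.2% of all genes passed. The interaction of TGFB1 (0.17, adjusted p = 0.00998) and TGFB2 (0.44, adjusted p = 0.000467) also passed without it, which made 5 members there, where 34.1% of all genes passed. The count of members passing in untreated cells was 1, INHBA, when any 1 untreated WT library was left out, and the share of all genes passing fell with it, to between 1.82% and 1.86%. In the ATG7 KO response it was 2, INHBA and FST, when any 1 treated ATG7 KO library was left out, against 11.1% to 11.2% of all genes. The ATG7 KO response had 4 members passing, INHBA, FST, SMAD7 and TGFBI, without replicate 3 of untreated ATG7 KO cells (16.9% of all genes).

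The other genes of the pathway were read from 8 lists with 97 genes in all. The lists were chosen with earlier results of these data known, so a share above that of all genes is only a description. In untreated ATG7 KO against WT cells 16 of 72 tested list genes passed, 7 higher and 9 lower (22.2%, against 7.7% of all genes). With H2O2 55 of 74 passed, 32 higher and 23 lower (74.3%, against 55.6%). H2O2 changed 61 of 73 in WT cells, of which 35 rose and 26 fell (83.6%, against 61%), and 33 of 73 in ATG7 KO cells, of which 20 rose and 13 fell (45.2%, against 26%). The responses differed for 22 of 75 (29.3%, against 14%). Without replicate 1 of untreated ATG7 KO cells, a check chosen after seeing the data, 46 of 72 passed in untreated cells, where 36.2% of all genes passed, and 56 of 73 in the ATG7 KO response, where 58.4% of all genes did. No test of the lists as such was made.

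**Figure D4:**
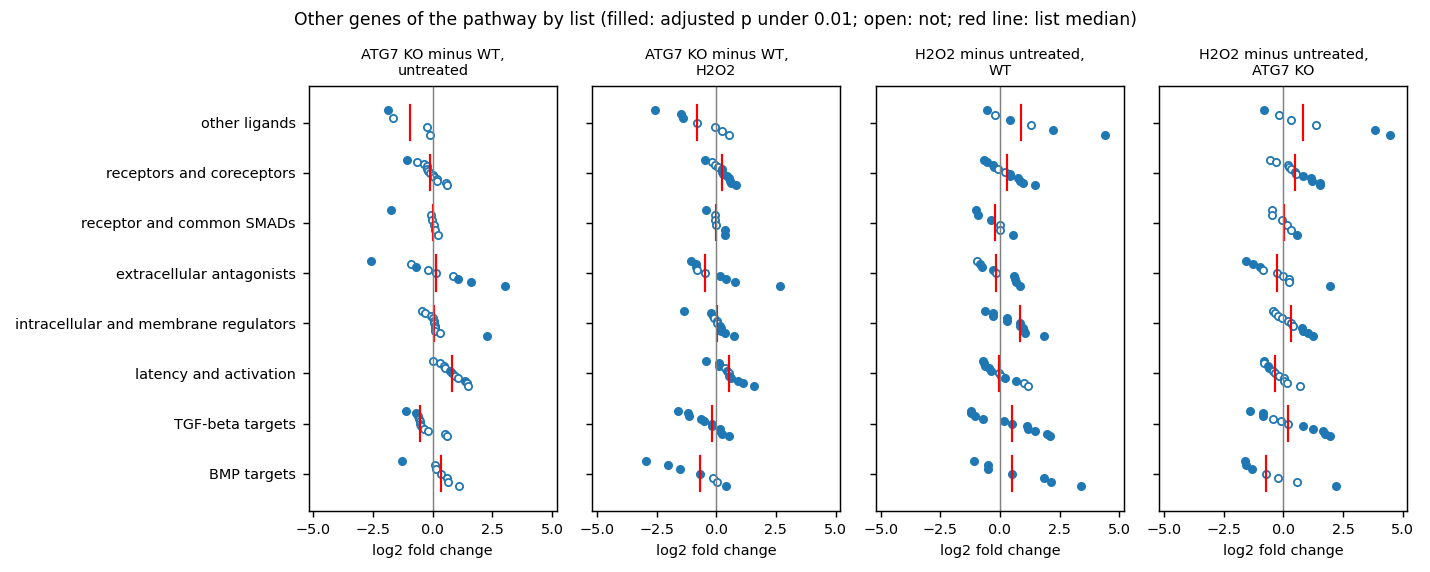
Log2 fold change (x axis) of each tested gene of the 8 pathway lists (y axis) in the 4 comparisons, with filled points for an adjusted p under 0.01 and a red line at the list's median. The latency and activation genes lie at or above 0 in untreated ATG7 KO against WT cells (median 0.81), and the BMP targets have medians of 0.49 in the WT response and -0.75 in the ATG7 KO response.

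Among the 21 other ligand genes, 4 to 7 were high enough to be tested in a comparison. INHBB, the βB activin subunit, rose with H2O2 by 2.21 in WT (SE 0.21, adjusted p = 4.53e-13) and by 3.84 in ATG7 KO cells (SE 0.33, adjusted p = 0.0002), from 0.495 and 0.153 FPKM to 2.32 and 2.24 FPKM. INHBA and INHBB, for the βA and βB subunits, thus rose in both lines. Of the genes for the other β subunits, INHBC was too low to be tested, and INHBE, with a mean of at most 0.28 FPKM in a group, did not pass in the WT response (log2 fold change 1.31, SE 0.48, adjusted p = 0.0152) and was too low to be tested in the ATG7 KO response. AMH, the anti-Müllerian hormone, had 18.0 ± 2.73, 24.5 ± 0.778, 15.4 ± 1.67 and 8.66 ± 0.789 FPKM (SD, n = 3) in untreated WT, treated WT, untreated ATG7 KO and treated ATG7 KO cells, and its responses differed by -1.27 (SE 0.17, adjusted p = 0.000294). BMP8B was lower in untreated ATG7 KO cells, at 0.555 against 2.05 FPKM (log2 fold change -1.88, SE 0.16, adjusted p = 0.000486). GDF11 fell in the WT response, by a log2 fold change of -0.54 (SE 0.09, adjusted p = 5.69e-07). Its ATG7 KO change of -0.18 (SE 0.13) had an adjusted p of 0.32.

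Of the receptor and coreceptor genes, 8 of 12 were higher and 1 lower with H2O2 in ATG7 KO than in WT cells (all genes: 27.7% and 27.9%). In untreated cells 1 of 13 passed (7.7% of all genes). Without replicate 1 of untreated ATG7 KO, 5 of 13 passed there, 2 higher and 3 lower (36.2% of all genes). TGFBR3, the betaglycan coreceptor that presents TGF-beta to TGFBR2, rose with H2O2 by 1.49 in WT (SE 0.11, adjusted p = 8.47e-17) and by 1.52 in ATG7 KO cells (SE 0.15, adjusted p = 0.000386). RGMB, a BMP coreceptor, was lower in ATG7 KO cells, by -1.07 untreated (SE 0.11, adjusted p = 0.000872) and -0.46 with H2O2 (SE 0.05, adjusted p = 5.19e-09). BMPR2, the type II BMP receptor, fell in the WT response by a log2 fold change of -0.68 (SE 0.05, adjusted p = 1.13e-15). Its ATG7 KO change of -0.32 (SE 0.19) had an adjusted p of 0.219. Among the 6 receptor and common SMADs, SMAD9 was the 1 that passed in untreated cells, where 7.7% of all genes passed. It was at 1.59 FPKM in ATG7 KO against 5.36 FPKM in WT cells (log2 fold change -1.75, SE 0.15, adjusted p = 0.000482), and its interaction was 1.31 (SE 0.17, adjusted p = 0.000262). SMAD3, a carrier of TGF-beta and activin signals, was higher in treated ATG7 KO cells by 0.36 (SE 0.04, adjusted p = 9e-10), and SMAD5, of the BMP branch, rose with H2O2 by 0.54 (WT, adjusted p = 1.75e-14) and 0.56 (ATG7 KO, adjusted p = 0.00279).

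Of the extracellular antagonists, 3 of 9 were higher and 2 lower in untreated ATG7 KO cells (all genes: 4.42% and 3.28%). GREM1, gremlin 1, which binds BMP2 and BMP4, was at 43.7 against 5.35 FPKM in untreated cells (log2 fold change 3.03, SE 0.12, adjusted p = 6.6e-05) and at 51.6 against 8.11 FPKM with H2O2 (2.66, SE 0.04, adjusted p = 7.33e-31). NOG, noggin, another BMP binder, rose with H2O2 in WT cells by 0.85 (SE 0.20, adjusted p = 0.000192) and fell in ATG7 KO cells by a log2 fold change of -1.29 (SE 0.20, adjusted p = 0.00212), and the responses differed by -2.13 (SE 0.30, adjusted p = 0.000446). FSTL1, a follistatin relative, was at 191.9 ± 9.21 FPKM in untreated and 106.8 ± 0.475 in treated WT cells. In ATG7 KO cells it was at 119.1 ± 5.12 FPKM untreated and 59.6 ± 0.494 FPKM treated. Its log2 fold change with H2O2 was -0.85 in WT (SE 0.04, adjusted p = 5.54e-24) and -1.0 in ATG7 KO cells (SE 0.09, adjusted p = 0.000239). ATG7 KO against WT gave -0.69 untreated (SE 0.10, adjusted p = 0.00405) and -0.85 with H2O2 (SE 0.03, adjusted p = 7.33e-21). BMPER fell in the ATG7 KO response by a log2 fold change of -1.55 (SE 0.12, adjusted p = 0.000111). It also fell in the WT response, by -0.73 (SE 0.19, adjusted p = 0.000556).

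Among the intracellular and membrane regulators, PMEPA1, a TGF-beta-induced gene whose product holds SMAD2 and SMAD3 back, had the highest log2 fold change in 3 of the comparisons. Its level was 3.48 FPKM for untreated and 12.7 for treated WT, and 16.9 for untreated and 21.3 for treated ATG7 KO, as means of 3 libraries. PMEPA1 was higher in untreated ATG7 KO cells by 2.27 (SE 0.10, adjusted p = 6.71e-05), and its responses differed by -1.53 (SE 0.11, adjusted p = 8.42e-06). BAMBI, a decoy receptor, was lower in treated ATG7 KO than in treated WT cells, by a log2 fold change of -1.34 (SE 0.07, adjusted p = 1.93e-16). SMURF1, a ubiquitin ligase that acts on SMADs and receptors, rose in the ATG7 KO response by 1.25 (SE 0.16, adjusted p = 0.00112), and ZFYVE9, an anchor for SMADs, fell in the WT response by a log2 fold change of -0.64 (SE 0.06, adjusted p = 1.97e-12). In the WT response all 11 of these regulators passed, 8 rising and 3 falling, where 61% of all genes passed.

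Latency and activation genes, which store TGF-beta in the matrix and release it, were higher in ATG7 KO cells for 3 of 11 tested in untreated cells and lower for 0, with a median log2 fold change of 0.81. Over all genes, 4.42% were higher and 3.28% lower there. Without replicate 1 of untreated ATG7 KO cells 10 of 11 were higher, in a setting where 36.2% of all genes passed. With H2O2, 8 of 11 were higher and 1 lower (all genes: 27.7% and 27.9%). THBS1, thrombospondin 1, an activator of latent TGF-beta, was at 84.3 against 32.7 FPKM untreated (log2 fold change 1.37, SE 0.15, adjusted p = 0.00133) and at 74.9 against 25.3 FPKM treated (1.56, SE 0.04, adjusted p = 3.97e-26). LTBP2, a matrix protein related to the latent TGF-beta binding proteins, rose in WT cells with H2O2 by 0.66 (SE 0.06, adjusted p = 2.42e-14), and its interaction was -1.47 (SE 0.28, adjusted p = 0.00254). The LTBP2 change of -0.81 in ATG7 KO cells (SE 0.26) did not pass (adjusted p = 0.0432), with 12.9 ± 4.55 FPKM (SD) in the untreated ATG7 KO libraries. LTBP3, which binds latent TGF-beta, fell with H2O2 in both lines. Its log2 fold change was -0.83 in ATG7 KO (SE 0.09, adjusted p = 0.000607) and -0.64 in WT cells (SE 0.06, adjusted p = 6.16e-14). ITGAV, the αv integrin subunit, also fell in both. Its log2 fold change was -0.69 in WT (SE 0.04, adjusted p = 3.11e-19) and -0.66 in ATG7 KO cells (SE 0.10, adjusted p = 0.00221).

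The 11 TGF-beta target genes were split in direction. In untreated ATG7 KO against WT cells 0 were higher and 3 lower (all genes: 4.42% and 3.28%). Without replicate 1 of untreated ATG7 KO, 2 were higher and 8 lower, where 36.2% of all genes passed. With H2O2, 4 were higher and 7 lower (all genes: 27.7% and 27.9%). CCN2, connective tissue growth factor, had 54.3 ± 1.26 FPKM in untreated WT, 153.1 ± 3.35 in treated WT, 24.9 ± 2.31 in untreated ATG7 KO and 97.4 ± 2.06 in treated ATG7 KO cells (SD, n = 3). It was lower in untreated ATG7 KO cells (log2 fold change -1.12, SE 0.10, adjusted p = 0.000537), where INHBA, TGFBR2 and SMAD7 were higher. TAGLN, a contractile-cell protein, was lower in treated ATG7 KO cells by -1.62 (SE 0.05, adjusted p = 5.64e-22), while FN1, fibronectin, was higher by 0.54 (SE 0.03, adjusted p = 6.82e-15). In the WT response SNAI2, a transcription factor of epithelial-mesenchymal transition, rose by 2.11 (SE 0.07, adjusted p = 1.18e-28) and COL1A1, a fibrillar collagen gene, fell by a log2 fold change of -1.21 (SE 0.04, adjusted p = 1.11e-30). Both also passed in the ATG7 KO response, SNAI2 at 1.76 (SE 0.12, adjusted p = 6.41e-05) and COL1A1 at -0.85 (SE 0.16, adjusted p = 0.0057). TPM1, a tropomyosin, fell in the ATG7 KO response by -1.39 (SE 0.10, adjusted p = 8.72e-05) and in the WT response by -0.71 (SE 0.04, adjusted p = 3.02e-20). SNAI1 had an interaction of -1.76 (SE 0.22, adjusted p = 0.000181) and COL1A2 of 0.62 (SE 0.13, adjusted p = 0.00379).

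Of the BMP targets, 4 of 7 had a lower response in ATG7 KO than in WT cells and 0 a higher one, against 7.01% and 7.02% of all genes. ID2, an inhibitor of bHLH transcription factors, was at 0.562 FPKM in untreated and 5.89 in treated WT cells, against 0.879 and 0.759 in ATG7 KO cells, as means of 3 libraries. Its log2 fold change with H2O2 was 3.39 in WT cells (SE 0.20, adjusted p = 9.28e-18), and the responses differed by -3.59 (SE 0.46, adjusted p = 0.000241). ID4 fell in the ATG7 KO response by a log2 fold change of -1.62 (SE 0.17, adjusted p = 0.00039). It rose in the WT response by 0.49 (SE 0.13, adjusted p = 0.000939). HEY1 rose by 2.20 in ATG7 KO (SE 0.23, adjusted p = 0.000479) and 2.15 in WT cells (SE 0.19, adjusted p = 7e-14). SMAD6, the inhibitory SMAD of the BMP branch, was lower in untreated ATG7 KO cells (-1.28, SE 0.15, adjusted p = 0.00193), in the direction opposite to SMAD7.

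Across the 12 libraries, the genes with the log2 profile most like each member were sought among 13306 genes with a mean above 1 FPKM in at least 1 group. The libraries share 4 groups, so Pearson's r mainly reflects the group means and is given as a description. INHBA was most like PRDM1 (r = 0.9977) and SEMA7A (r = 0.9951), SMAD7 like MFSD2A (0.9969) and FAM43A (0.9931), and FST like WDR43 (0.9962) and BAK1 (0.9961). TGFBR2 was most like CDH24 (0.9936) and STC1 (0.9917), TGFB1 like FGF2 (0.9857) and FEZ1 (0.9798), and TGFBI like CCNG2 (0.9926) and CNRIP1 (0.9909). TGFB2 was most like SIM1 (0.991) and STXBP4 (0.99), TGFB3 like MINK1 (0.979) and MON2 (0.9738), and BMP4 like ZNF16 (0.9599) and RAD23B (0.9487). Among the members themselves, TGFB1 and TGFBR2 had r = 0.96 and FST and SMAD7 0.92, whereas TGFB2 and SMAD7 had r = -0.95.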

How the data were processed

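The 12 libraries were made from total RNA of HLE-B3 cells, 3 for each of 4 groups that were set by genotype and treatment in the labels. The deposited counts are whole numbers of reads per gene, and the authors' FPKM equals the count over gene length and library total times 1 factor per library (0.949 to 1.02). The submitters' processing notes name HISAT2 2.0.5, featureCounts 1.5.0-p3 and GRCh38. The strand setting and the handling of reads that map to several places were not given in the sources used here, so overlapping genes may share reads.

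Counts were analysed with edgeR 4.0.16 in R 4.3.3. The filter was filterByExpr (minimum count 10) and the scaling TMM, and a robust quasi-likelihood fit was used on the 6 libraries of each comparison, without covariates. The difference of the H2O2 responses was the interaction in a fit of all 12 libraries. Benjamini-Hochberg adjustment ran over all genes tested, and genes were called at 0.01. Levels are given in FPKM, and totals of 15602183 to 17659496 reads limit the precision of BMP2, BMP4 and TGFB3 by counting. The study calls the replicates biological, and nothing says whether they were separate cultures, so p values measure the spread between these libraries.

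The members and the pathway lists were chosen with earlier results of these data known. Every member is named, and of each pathway list the gene with the highest and the one with the lowest log2 fold change among those that passed with a mean above 1 FPKM in at least 1 group of a comparison. A subset of their values is printed. The 2 genes most like each member were taken by Pearson's r of log2 CPM, which was computed here from the counts. Alternatives were DESeq2 1.42.0, RLE and upper quartile scaling, no filter, at least 10 reads in every library, all 12 libraries in each fit, the replicate block, limma 3.58.1 on log2 FPKM with a pseudocount of 1 or 0.1, a correction for gene length with a lowess span of 0.3, each library left out in turn, and other thresholds.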

Additional observations from a re-analysis of the deposited data

Results flagged for a closer look

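The H2O2 response of 3 members differed between ATG7 KO and WT cells by edgeR's test of the interaction. On the log2 scale INHBA rose less in the knockout line, by an interaction of -1.53. In mean FPKM INHBA went from 16.3 to 90.2 in that line and from 1.96 to 31.3 in WT cells. For SMAD7 the difference was -1.09, and SMAD7 was the 1 of these 3 that was higher in untreated and lower in treated ATG7 KO cells. For TGFB3 the difference was 1.09, a call that was lost in 9 of the fits that left out 1 library. Groups of 3 libraries are too small for a test of single outlying libraries.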

How the results depend on the processing

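The 10 members gave 815 log2 fold changes under the alternatives: 730 kept their direction and their side of the threshold, 48 no longer passed, 26 newly passed and 11 changed sign. INHBA passed in every comparison and setting tried. In untreated ATG7 KO against WT cells 3 members passed (7.7% of all genes), against 6 with DESeq2 (16.4%), 6 with all 12 libraries in 1 fit (18.7%), 6 at an adjusted p under 0.05 (18.5%), and between 1 and 7 with a library left out (1.82% to 36.2%). The count in the ATG7 KO response was 7 (26% of all genes), and between 2 and 9 with a library left out (11.1% to 58.4%). The count for the difference of responses was 3 (14%), against 5 at an adjusted p under 0.05 (30.1%) and between 2 and 5 with a library left out (7.69% to 34.1%). All thresholds of the study together gave 1, 1, 4 and 3 members in the 4 comparisons. The cause of these differences was not tested.

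Signs changed for values near 0. The untreated difference of FST lay between -0.04 and 0.14 with a library left out and was -0.05 with the gene length correction, which put TGFBI at 0.01. TGFB2 with H2O2 lay between -0.01 and 0.13 with a library left out, BMP4 in WT cells between 0.00 and 0.34, and the interaction of TGFBR2 between -0.07 and 0.07, with -0.02 at 10 reads in every library and -0.03 with upper quartile scaling.

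Same-numbered libraries of different groups deviated from their group means with r between -0.07 and 0.10, so no strong shift shared by replicate number was seen. Whether equal numbers mark a shared culture or batch cannot be told from the labels. With the replicate block, 2 members passed in untreated cells (3.25% of all genes), where SMAD7 had an adjusted p of 0.0166. With H2O2 8 passed (54.7%), and 8 in the WT response (61.1%). For the ATG7 KO response 5 passed (19.0%), and for the interaction 3 (11.8%). Depth limits BMP2, which had 0 to 27 reads per library.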
